A study of Mus musculus with 3 samples.

Results

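Keratins 7, 8, 18, 19, 20, 23 and 80 are grouped here as simple and luminal keratins. Their 7 mouse genes (Krt7, Krt8, Krt18, Krt19, Krt20, Krt23 and Krt80) were read on 3 arrays of mouse RNA. The genes were chosen by name, through the platform annotation of the array, and are 7 of 22180 named genes. They were carried by 8 probe sets of 41345, since Krt18 has 2 probe sets and each other gene has 1. The first array held RNA of FULA 1, a cultured mouse line of lung adenocarcinoma grown in serum-containing medium. The second held RNA from lung of FVB mice 1 week after urethane was injected into the peritoneum, and the third RNA from lung of FVB mice injected with saline. Urethane is a carcinogen that gives lung adenomas in mice, and FVB is an inbred strain prone to them. The sources used here give neither the number of mice behind each lung array nor their age or sex, nor the strain of the FULA 1 line or the week in which the saline lung was taken. Each group was 1 array, so no spread between replicates is known, no test was run, and every difference is between these arrays.

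Keratins are intermediate filament proteins that polymerize as obligate pairs of a type I and a type II chain. Krt8 (type II) with Krt18 (type I) is the primary pair of simple epithelia. Krt7 (type II) and Krt19 (type I) accompany it in ducts and in lung epithelium. Krt20 and Krt23 (both type I) are restricted to fewer epithelia, and Krt80 is a further type II chain. In lung, Krt7, Krt8, Krt18 and Krt19 mark airway and alveolar epithelium and also the mesothelium, while Krt5 and Krt14 mark basal cells. The filaments are anchored at desmosomes and hemidesmosomes by plakin proteins.

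The deposited log2 values of the 3 arrays lay on different scales, with medians of 4.96 on FULA 1, 1.22 on urethane lung and 0.08 on saline lung. A level is therefore given as its percentile rank among the probe sets of its own array, which no monotone scaling changes, and as the value after quantile normalization, which gives each array the same distribution. The background mark is the 95th percentile of 1105 olfactory receptor genes, at rank 46.5 on FULA 1, 59.2 on urethane lung and 59.6 on saline lung. Genes that differed by 2-fold or more (1 on the log2 scale) were called higher or lower, provided that at least 1 of both values reached a floor of 2.37, the median over all genes and arrays. Where the lower value lay below the mark, the bound with the mark in its place is also given. Probe sets bind with unequal strength, so a level is compared between arrays and not between genes. Across the named genes, FULA 1 against saline lung had 22.6% called higher and 22.0% lower of 13590 genes past the floor. FULA 1 against urethane lung had 22.1% higher and 19.5% lower of 13264, and urethane lung against saline lung 3.27% higher and 1.31% lower of 12519. The split depends on the scaling: 3073 genes were higher and 2994 lower in FULA 1 than in saline lung, but 7058 higher and 1785 lower when every array was moved to 1 median. Against urethane lung these numbers were 2930 and 2581, and 7154 and 1558. Between the lungs they were 409 and 164, and 215 and 203. The comparisons share arrays, so their values are given side by side and not as independent results.

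The lung and tumour cell labels were set against cell type markers, as sums of the normalized values on the linear scale. All 9 alveolar type II markers lay above the mark on both lungs and 7 of them on FULA 1, with a sum of 49.0 on FULA 1, 4129 on urethane lung and 3499 on saline lung. All 6 club cell markers lay above the mark on both lungs and 3 on FULA 1, with a sum of 248 on FULA 1, 4699 on urethane lung and 4686 on saline lung. On FULA 1 their ranks ran from 20.3 to 98.6 with a median of 36.3, so that sum is not spread evenly over them. Of 11 general epithelial markers 10 lay above the mark on FULA 1, 10 on urethane lung and 9 on saline lung, with a sum of 176 on FULA 1, 210 on urethane lung and 178 on saline lung. The epithelial sums hide opposed genes: against saline lung 2 of the 11 were higher and 3 lower in FULA 1 (median -0.51), and against urethane lung 1 was higher and 5 were lower (median -0.89). The shares over all genes were 22.6% higher and 22.0% lower against saline lung, and 22.1% and 19.5% against urethane lung. Endothelial markers summed to 27.5 on FULA 1, 449 on urethane lung and 552 on saline lung, and fibroblast markers to 38.0 on FULA 1, 385 on urethane lung and 375 on saline lung. The sum of the mesothelial markers was 117 on FULA 1, 52.0 on urethane lung and 45.6 on saline lung. It also hides opposed genes: against saline lung Msln alone of 6 was called higher and 3 were lower (median -0.41), beside 22.6% and 22.0% of all genes. The part of these cell types in the keratin values was not tested. In lung, fewer epithelial cells and less keratin RNA per cell cannot be told apart.

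In FULA 1, 5 of the 7 keratin genes exceeded their saline lung level by 2-fold or more (Krt20, Krt8, Krt23, Krt18 and Krt19), 1 was lower by that much (Krt80), and Krt7 was at nearly the same rank; of all genes past the floor 22.6% were higher and 22.0% lower. Against urethane lung 4 were higher, Krt19 falling just short of 2-fold, and Krt80 was again lower, beside 22.1% of all genes higher and 19.5% lower. The median difference of the 7 genes was 2.89 (log2) against saline lung and 2.25 against urethane lung. Over all genes past the floor it was 0.02 against saline lung and 0.07 against urethane lung. All 7 genes passed the floor in both comparisons, and the 7 differences from saline lung ran from -2.88 to 5.54. Between the lungs none of the 7 was called, where 3.27% of all genes were higher and 1.31% lower, and the largest difference was 0.84.

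**Figure D1:**
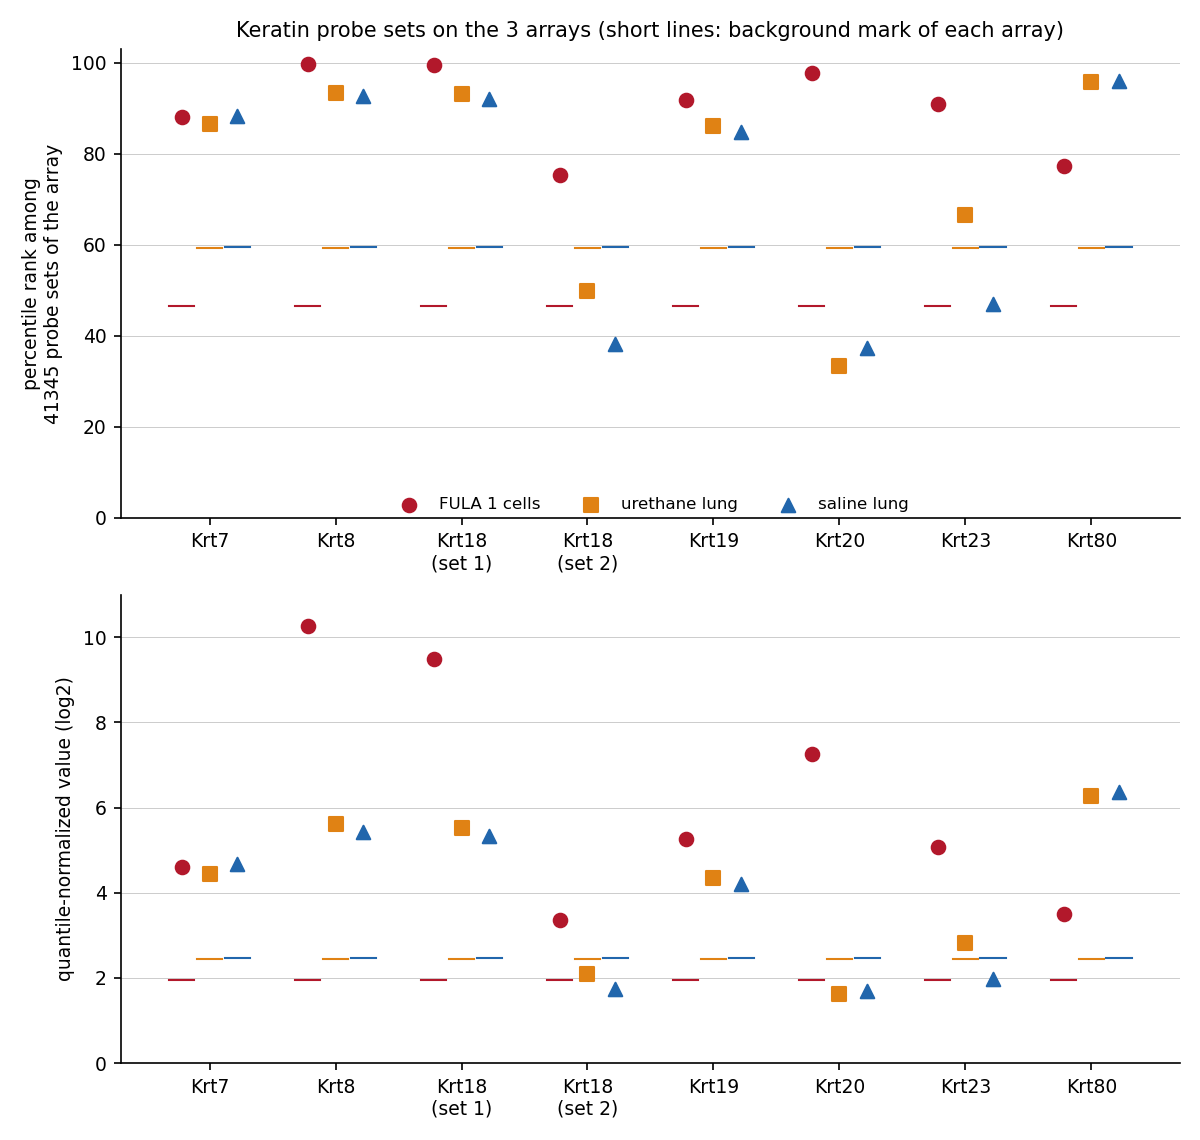
Percentile rank (upper panel) and quantile-normalized log2 value (lower panel) of the 8 keratin probe sets on the arrays of FULA 1 cells (circles), urethane lung (squares) and saline lung (triangles). Each point is 1 array and the short lines give the background mark of each array. The lungs lie close together for every probe set except Krt23 and the weaker Krt18 set. Krt8, both Krt18 sets, Krt20 and Krt23 stand higher on FULA 1 and Krt80 lower.

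Krt8 and Krt18 encode the chains of the primary simple epithelial filament. Krt8 stood at percentile rank 99.7 on FULA 1, 93.4 on urethane lung and 92.7 on saline lung. Its normalized values were 10.27 on FULA 1, 5.60 on urethane lung and 5.43 on saline lung. It was thus already well above background in both lungs, and higher still in the line. The difference was 4.84 (28.7-fold) against saline lung, the 16th largest of 13590 genes, and 4.67 (25.5-fold) against urethane lung, the 22nd largest of 13264. The size depends on the scaling: against saline lung it was 3.02 on the FULA 1 quantiles and 3.39 after lowess subtraction, and against urethane lung 2.88 and 2.77.

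Krt18 was read by a pair of probe sets that had the same direction but unequal size. The stronger set stood at rank 99.6 on FULA 1, 93.1 on urethane lung and 92.2 on saline lung. Its normalized values were 9.48 on FULA 1, 5.53 on urethane lung and 5.33 on saline lung, a difference of 4.15 (17.8-fold) from saline lung and 3.96 (15.5-fold) from urethane lung. The weaker set stood at rank 75.4 on FULA 1 and below the mark on both lungs, at 49.9 on urethane lung and 38.3 on saline lung. It was higher on FULA 1 by 1.63 than on saline lung and by 1.28 than on urethane lung, or by at least 0.90 and 0.92 with the mark in place of the lung value. The gene mean was 6.42 on FULA 1, 3.81 on urethane lung and 3.53 on saline lung, a difference of 2.89 (7.41-fold) from saline lung and 2.62 from urethane lung, or 1.48 and 1.34 after lowess subtraction. The gap of the pair in that comparison with saline lung, 2.53 on the log2 scale, can be set against a median gap of 0.94 over 694 genes with a pair of probe sets. Krt8 and Krt18 have processed pseudogenes in mammals, and what share of the signal such copies take is not known from these files.

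Krt7 and Krt19, the duct and lung companions of that pair, differed less. Krt19, the type I chain that lacks a tail domain, stood at rank 91.9 on FULA 1, 86.1 on urethane lung and 84.8 on saline lung. Its normalized values were 5.26 on FULA 1, 4.35 on urethane lung and 4.21 on saline lung. The difference was 1.06 (2.08-fold) from saline lung and 0.91 (1.88-fold) from urethane lung, on either side of the 2-fold threshold. As many as 21.1% of the genes past the floor had a larger difference from saline lung. With a shift to 1 median the difference was 2.69 from saline lung and 2.46 from urethane lung. After lowess subtraction it was 0.81 from saline lung, below 2-fold.

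Krt7, a type II chain of glandular and lung epithelium, stood at rank 88.0 on FULA 1, 86.6 on urethane lung and 88.4 on saline lung. Its normalized values were 4.61 on FULA 1, 4.43 on urethane lung and 4.67 on saline lung. The line and the lungs were nearly level, with differences of -0.07 from saline lung and 0.18 from urethane lung, and the second turned to -0.08 after lowess subtraction. The urethane value was shared by 153 probe sets of that array and is coarse. With only a shift of each array to 1 median, the FULA 1 difference became 1.58 from saline lung and 1.77 from urethane lung, past the 2-fold threshold, so that the near equality of Krt7 holds for ranks and not for every scaling.

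Krt20, a type I chain of intestinal, gastric and urothelial surface cells and of Merkel cells, had the largest measured difference of the 7. It stood at rank 97.8 on FULA 1, 33.4 on urethane lung and 37.2 on saline lung, below the mark on both lungs. Its deposited value on urethane lung was shared by 1277 probe sets and that on saline lung by 623, so the lung values have little resolution. The normalized values were 7.25 on FULA 1, 1.62 on urethane lung and 1.71 on saline lung. With the mark in place of the lung values, Krt20 was at least 27.9-fold higher in FULA 1 than in urethane lung (4.80 on the log2 scale) and at least 27.6-fold higher than in saline lung (4.78). That bound is slightly under the 4.84 of Krt8, and with an offset of 32 on the linear scale the difference from saline lung was 2.38.

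Krt23, a type I chain known from human cells and mouse liver as inducible under stress, is the gene next to Krt20 in the chromosome 11 cluster. It stood at rank 90.9 on FULA 1, 66.5 on urethane lung and 46.9 on saline lung, below the mark on saline lung alone. The normalized values were 5.07 on FULA 1, 2.81 on urethane lung and 1.98 on saline lung. FULA 1 was higher by 2.25 (4.77-fold) than urethane lung and by 3.09 than saline lung, or at least 6.08-fold higher than saline lung (2.60) with the mark as its value. With the offset of 32 the difference was 0.75 from urethane lung and 0.87 from saline lung, and the call was lost in both comparisons.

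Krt80, a type II chain that in human epithelia lies at cell borders near desmosomes, went the other way. It stood at rank 77.2 on FULA 1, 95.7 on urethane lung and 96.0 on saline lung. The normalized values were 3.50 on FULA 1, 6.28 on urethane lung and 6.38 on saline lung. The line therefore had a level above its own mark but far below the lungs, at -2.88 from saline lung and -2.78 from urethane lung, or 7.34-fold and 6.86-fold lower. With a shift to 1 median these were -1.76 and -1.27. Of the genes past the floor, 2.19% had a lower difference from saline lung. A long non-coding RNA gene and a microRNA gene overlap Krt80 in the RefSeq gene table, and which transcripts its probe set reads is not known from these files.

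**Figure D2:**
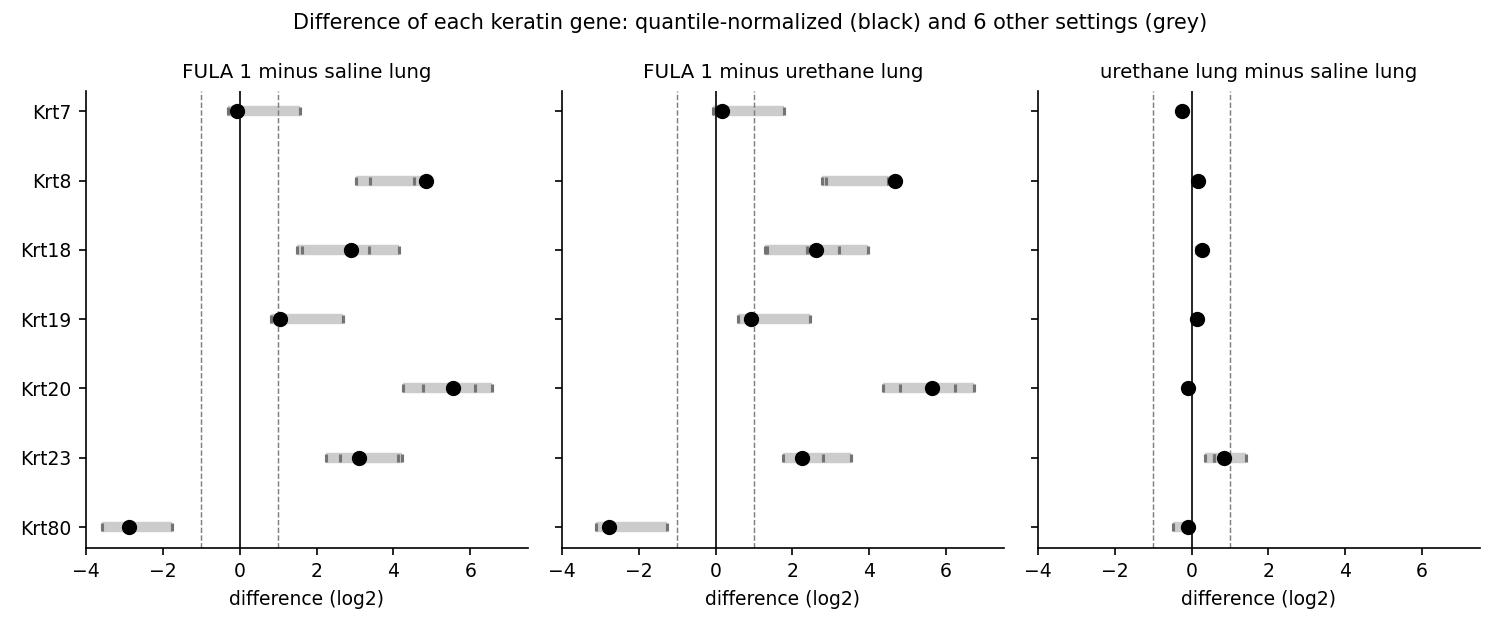
Difference of each keratin gene (log2) for FULA 1 minus saline lung, FULA 1 minus urethane lung and urethane lung minus saline lung. Black points are quantile-normalized values, grey ticks and bars show 6 other settings (common median, quantiles of FULA 1, lowess, highest and lowest probe set, values held at the background mark) and dashed lines mark 2-fold. Krt8, Krt18, Krt20 and Krt23 lie right of 1 in both FULA 1 panels under all 6, Krt80 lies left of -1, and Krt7 and Krt19 cross a dashed line; the values as deposited and those with an offset of 32, where Krt23 was under 1, are not drawn.

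Between the lungs the keratins were close. In urethane lung against saline lung the differences were 0.17 for Krt8, 0.27 for Krt18, 0.14 for Krt19, -0.24 for Krt7 and -0.10 for Krt80. The central 95% of 12519 genes ran from -0.89 to 1.08, and these 5 genes lay well inside it. Krt20, below background on both lungs, has no size here. Krt23 differed by 0.84, with 5.46% of genes above it, but its saline value lay under the mark and the bound was 0.35. When the lungs were given the FULA 1 quantiles the Krt23 difference was 1.42, and after lowess subtraction it was 0.59, so its side of the threshold depends on the scaling.

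The 250 bases before the annotated start of 4 genes are shown for Krt8 and Krt18, for the gene with the largest difference and for Krt7, whose rank barely differed. They are RefSeq sequences of GRCm38.p6, 5′ to 3′ in the sense of the gene, which are those of the C57BL/6J reference and not of FVB mice or FULA 1. Capitals mark the letters of a GC box (GGGCGG) or a TATA box (TATAAA) on either strand. Of the 7 genes 5 matched the promoter table; Krt19 and Krt80 are named only. Krt8 is at chr15:102004343-102004592 (minus strand), Krt18 at chr15:102027966-102028215 (plus strand), Krt20 at chr11:99438154-99438403 (minus strand) and Krt7 at chr15:101412153-101412402 (plus strand).
Krt8: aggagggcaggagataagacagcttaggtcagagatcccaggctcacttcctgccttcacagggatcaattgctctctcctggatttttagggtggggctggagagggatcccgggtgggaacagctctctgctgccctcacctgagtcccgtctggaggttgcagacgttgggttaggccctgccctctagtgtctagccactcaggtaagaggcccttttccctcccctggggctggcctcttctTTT
Krt18: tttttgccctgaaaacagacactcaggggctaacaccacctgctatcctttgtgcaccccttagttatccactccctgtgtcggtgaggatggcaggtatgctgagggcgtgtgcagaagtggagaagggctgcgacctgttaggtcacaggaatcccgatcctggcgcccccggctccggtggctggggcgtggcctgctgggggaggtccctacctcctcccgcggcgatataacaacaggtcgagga
Krt20: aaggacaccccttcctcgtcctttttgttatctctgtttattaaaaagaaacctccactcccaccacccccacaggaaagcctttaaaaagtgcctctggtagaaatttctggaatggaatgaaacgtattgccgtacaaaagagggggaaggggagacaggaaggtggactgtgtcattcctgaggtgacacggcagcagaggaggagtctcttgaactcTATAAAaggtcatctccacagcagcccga
Krt7: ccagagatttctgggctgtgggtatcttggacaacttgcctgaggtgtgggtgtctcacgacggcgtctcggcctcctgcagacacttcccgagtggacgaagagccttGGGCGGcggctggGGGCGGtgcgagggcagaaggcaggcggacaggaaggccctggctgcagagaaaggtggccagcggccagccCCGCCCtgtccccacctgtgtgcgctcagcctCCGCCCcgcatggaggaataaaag

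Krt20 held a TATA box whose first base lay 29 bases before the start. The final capitals of Krt8 begin a run that holds TATAAA on both strands, overlapping each other and crossing the annotated start. Krt7 held 4 GC boxes, the first letters of which lay 141, 128, 56 and 24 bases before the start, and neither Krt8, Krt18, Krt20 nor Krt23 held any. Within 250 bases before to 50 after the start, 35.7% of 32851 promoters held a GC box and 13.6% a TATA box. AP-1 (TGANTCA, in 7.81% of promoters), grainyhead (AACCNGTT, 2.09%) and ETS (CCGGAAGT, 3.89%) motifs were searched on both strands as well and had no match in the 5 windows. The G and C content of the 250 bases was 66.0% for Krt7, 60.4% for Krt18, 58.0% for Krt8, 52.8% for Krt23 and 48.0% for Krt20, against a median of 52.4% over the table. A match describes letters in the window and no more.

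The other keratins, those of stratified epithelia, hair and nail, did not share the higher levels of Krt8, Krt18, Krt20 and Krt23 in FULA 1. Of 46 measured genes none was at least 2-fold higher than in saline lung and 6 were at least 2-fold lower, with a median of -0.34. In the same comparison the 7 simple keratins had 5 higher and 1 lower. The levels were low throughout: 34 of the 46 lay below the mark on FULA 1, 38 on urethane lung and 29 on saline lung, and 26 on all 3 arrays, and those 26 have no size of difference. Of the 46, 18 passed the floor, against all 7 simple keratins. Krt86, a hair keratin, was at -1.88 (lower by at least 1.67) and its neighbour Krt81 at -1.44, although near-identical hair keratin genes can share signal. Among the stratified keratins Krt78 was at -1.23 and Krt6b at -1.16 (lower by at least 0.98), while Krt79 was at 0.15, a sign that turned after lowess subtraction. The basal cell markers Krt14, Krt15, Trp63 and Ngfr were below the mark on all 3 arrays. Krt5, the remaining basal marker, was not among the measured genes. After a shift to 1 median 2 of the 46 were higher and 5 lower, and on the FULA 1 quantiles 0 were higher and 13 lower. Over all genes these numbers were 7058 and 1785 of 13666, and 3879 and 4072 of 13590.

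In the order of the genes along the chromosomes, Krt8 with Krt18 and Krt20 with Krt23 lay as pairs. Krt18 is the type I gene that lies in the type II cluster. Krt8 and Krt18 are separated in the RefSeq table by 2 genes, of which 0 are protein-coding. Krt20 and Krt23 have 0 genes between them. Krt80 and Krt7 stand at the other end of the chromosome 15 cluster, at -2.88 and -0.07, and Krt19 lies among the stratified type I genes. The measured keratin genes beside the higher pairs were not called higher. Among the keratins, Krt78, next to Krt8, was at -1.23 and Krt12, next to Krt20, at -0.87. Krt39, next to Krt23 and below background on FULA 1 and both lungs, was at 0.04 (negative with a common median). Genes other than keratins were not examined in this order, and Krt18 is the last keratin of the chromosome 15 cluster.

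**Figure D3:**
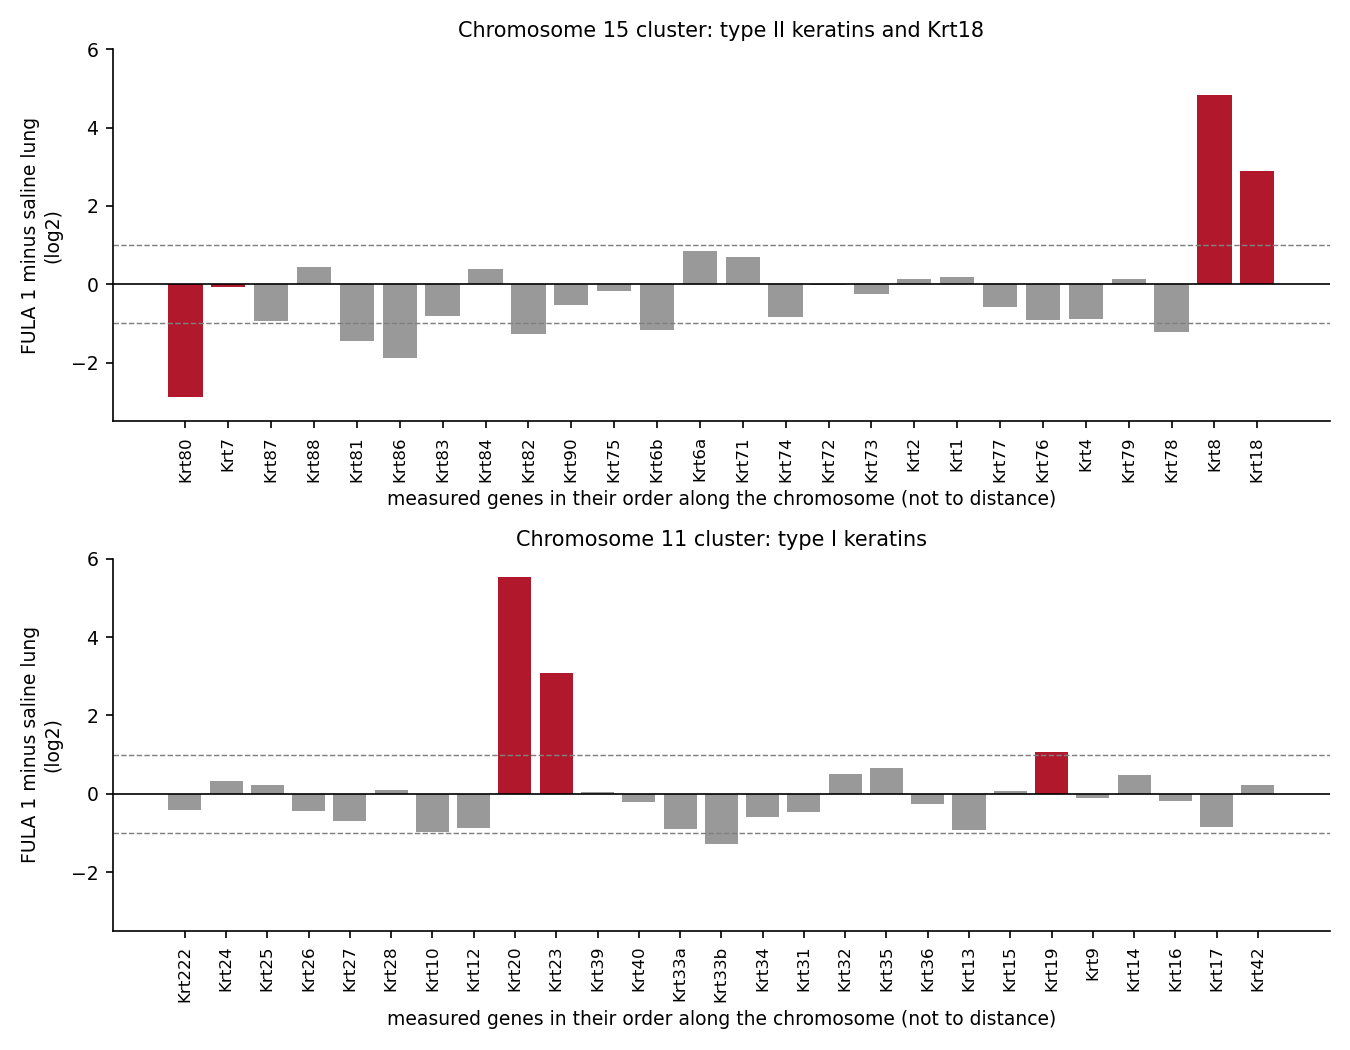
FULA 1 minus saline lung (log2, quantile-normalized) for the measured keratin genes in their order along chromosome 15 (upper panel) and chromosome 11 (lower panel), with spacing not to distance. Red bars are the 7 simple keratins, grey bars the other keratins, and dashed lines mark 2-fold. Krt8 with Krt18 and Krt20 with Krt23 form the tall bars (4.84, 2.89, 5.54 and 3.09), and Krt80 at -2.88 is the lowest bar.

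Desmosome genes, whose products tie keratin filaments to cell borders, were mixed. In FULA 1 against saline lung 3 of 15 measured genes, of which 10 passed the floor, were called higher and 1 lower, with a median of 0.01; the shares over all genes were 22.6% and 22.0%. Dsp, the desmoplakin that binds keratins directly, had normalized values of 6.97 on FULA 1, 3.26 on urethane lung and 3.34 on saline lung, a difference of 3.64 from saline lung and 3.71 from urethane lung. Pkp2, a plakophilin, was higher by 3.66 than in saline lung (at least 2.51) and Perp, a desmosomal membrane protein, by 1.23. Jup, the plakoglobin shared by desmosomes and adherens junctions, was at -1.86 from saline lung and Pkp4 at -0.93, a sign that turned with a common median. The genes of stratified desmosomes Dsg1a, Dsg3, Dsc1 and Dsc3 lay below the mark on all 3 arrays, as did Dsc2.

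Hemidesmosome and plakin genes, which anchor filaments to the basement membrane, had 5 of 9 measured genes higher and 1 lower in FULA 1 than in saline lung, with a median of 1.09, and 4 were higher and 1 lower against urethane lung. Itga6, the laminin-binding integrin chain, stood at rank 96.7 on FULA 1, 68.2 on urethane lung and 69.3 on saline lung, a difference of 3.69 from saline lung. Dst, a plakin, was higher by 1.90, whereas Col17a1, a transmembrane collagen of hemidesmosomes, was at -1.34 (lower by at least 1.08) and Lama3 at -0.07, a sign that turned with a common median. Col17a1 was also the gene called lower than in urethane lung, at -1.04, but its bound of -0.78 fell short of 2-fold. The saline lung counts stand beside 22.6% of all genes higher and 22.0% lower. For the urethane lung counts these shares were 22.1% and 19.5%, and 9 genes are few.

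Genes whose products modify, cleave or chaperone keratins had 2 of 15 higher and 3 lower in FULA 1 than in saline lung, all 15 past the floor, with a median of 0.06, beside 22.6% and 22.0% of all genes. With a common median 7 were higher and 1 lower, with a median of 0.95, but of all 13666 genes past the floor 7058 were then higher and 1785 lower. Fam83h, which recruits casein kinase 1 to keratin filaments in human cells, was higher by 1.62 (at least 1.51) and Ogt, the enzyme that adds O-linked N-acetylglucosamine, by 1.35. Tgm2, a transglutaminase that can cross-link keratins, was at -2.58 and Prkce, a protein kinase C, at -1.98.

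Among other intermediate filament genes, 1 of 15 was higher and 2 were lower in FULA 1 than in saline lung, with 11 past the floor, beside 22.6% and 22.0% of all genes. The muscle filament genes Synm and Des were at -3.73 and -2.42, and the lamin genes Lmnb1 and Lmna at 1.17 and 0.99. Vim, the vimentin of mesenchymal cells and of many cultured lines, had normalized gene means of 7.02 on FULA 1, 7.47 on urethane lung and 7.96 on saline lung. Its probe sets disagreed in size: the stronger was at 10.02 on FULA 1, 9.80 on urethane lung and 10.09 on saline lung, nearly level, and the weaker at 4.02 on FULA 1, 5.15 on urethane lung and 5.82 on saline lung. By the stronger probe set, high Krt8 and Krt18 stood beside high Vim in FULA 1.

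Of 23 transcription factors of epithelial genes, 18 passed the floor and 5 were higher and 5 lower in FULA 1 than in saline lung, near the 22.6% and 22.0% of all genes. Foxa1, a forkhead factor of endoderm, was higher by 2.29 and Hnf4a, a nuclear receptor of gut and liver epithelium, by 1.38 (at least 1.28). Foxa2 and Tfap2c were both at -1.62, Tfap2c lower by at least 0.89. Cdx2, the intestinal homeobox factor, stood at rank 63.3 on FULA 1, 21.1 on urethane lung and 46.7 on saline lung, below the mark on both lungs and higher by at least 0.16 than in saline lung. Of 5 factors that repress epithelial genes 0 were higher and 2 lower, Zeb1 at -1.81 and Twist1 at -1.37, while Twist2 was at 0.99 (at least 0.69) and Snai2 at -0.15. With a common median the split became 2 higher and 0 lower, where 7058 of 13666 genes were higher and 1785 lower.

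Apical and luminal genes of gut, airway and urothelium had 5 of 19 higher and 5 lower in FULA 1 than in saline lung, with 14 past the floor and beside 22.6% and 22.0% of all genes, with a median of -0.23 that turned to 0.10 with a common median. Cdh17, the liver-intestine cadherin, stood at rank 95.3 on FULA 1, 41.5 on urethane lung and 47.5 on saline lung and was higher by 4.14 than in saline lung (at least 3.67). Lgals4, a gut galectin, was higher by 2.39, and Tff2, a trefoil peptide, and Prom1, the prominin of apical protrusions, were at -1.73 and -1.69, Prom1 lower by at least 0.99. Vil1, Tspan8 and Ezr completed the higher genes and Upk1b, Muc1 and Tff1 the lower ones; Tff1 turned positive with a common median. Of the general epithelial genes with 2 higher and 3 lower, Cldn7, a claudin of tight junctions, was at -2.23, Rab25, a small GTPase of epithelial recycling, at -1.98 and Cldn3 at -1.12, which turned positive with a common median. Spint2, a protease inhibitor, was higher, with 5.73 on FULA 1, 5.09 on urethane lung and 4.24 on saline lung. Cdh1 (E-cadherin) was higher by 2.06 as the mean of a pair of probe sets, and by 0.28 after lowess subtraction. Its stronger set, at rank 99.3 on FULA 1, was higher by 3.28. Its weaker set was higher by 0.83 but lay below the mark on each lung. Epcam was at -0.51, a sign that turned with a common median. Of 6 mesothelial markers Msln was higher by 3.16, whereas 3 were lower (Upk3b at -1.87, at least 1.69 lower, Lrrn4 at -1.86, at least 0.74 lower, and Wt1 at -1.06).

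**Figure D4:**
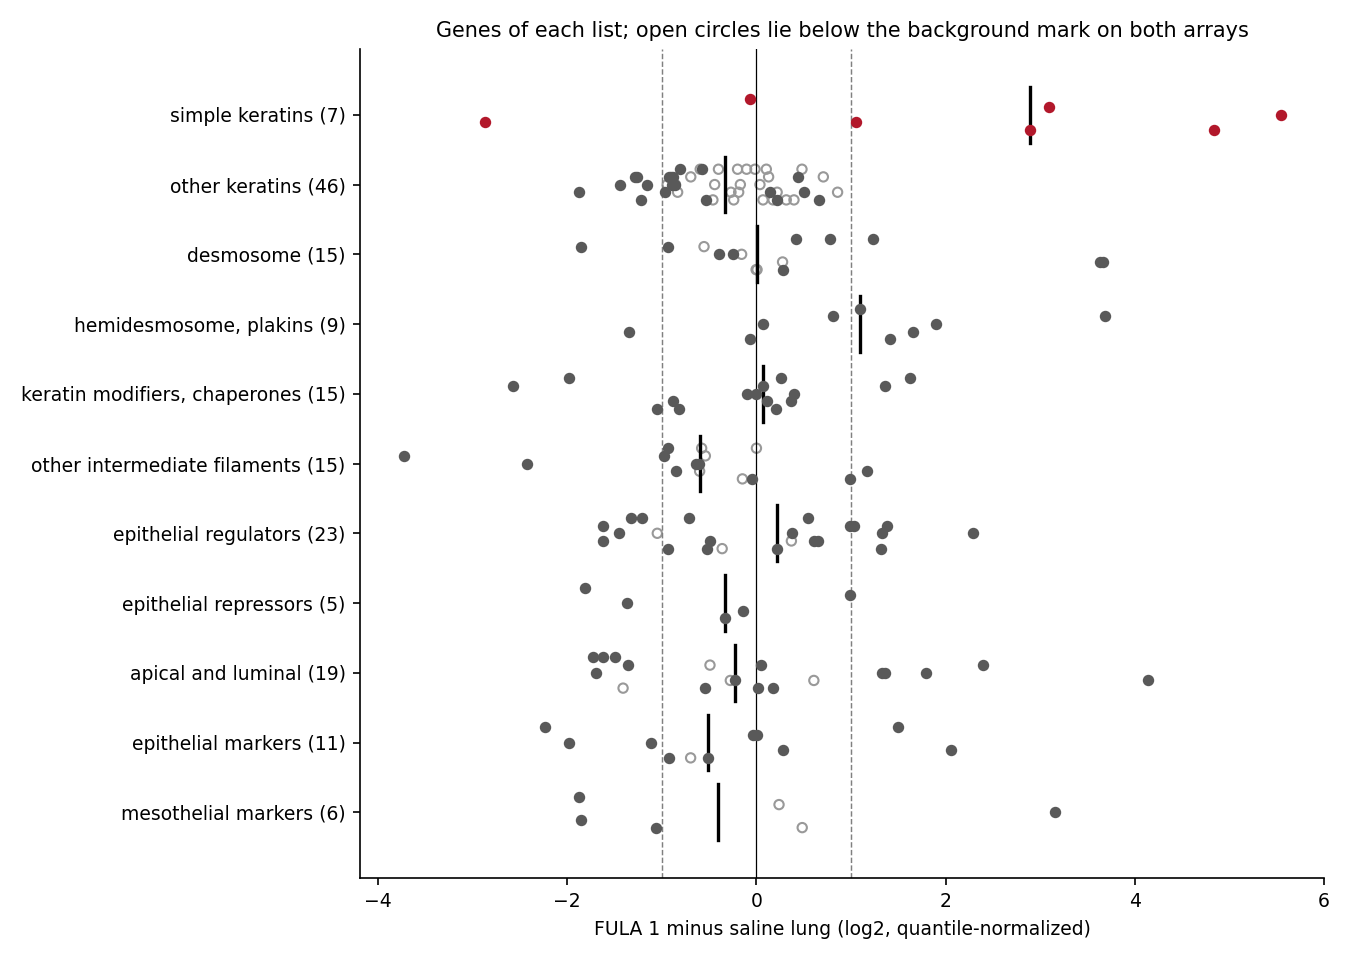
FULA 1 minus saline lung (log2, quantile-normalized) for each gene of 11 lists, with the number of measured genes in brackets. Each circle is 1 gene, open circles lie below the background mark on both arrays, vertical bars are list medians and dashed lines mark 2-fold. The simple keratins have a median of 2.89 and the hemidesmosome and plakin list one of 1.09, and the other medians lie between -0.60 and 0.21.

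Genes near each keratin in level over the arrays were found by the Euclidean distance over the 3 normalized values, among named genes without predicted transcripts. The distance is between levels of different probe sets, so it depends on how strongly each one binds, and the Krt18 level is the mean of unequal probe sets; the names are a description and show no shared pattern. Nearest to Krt8 were Ankrd1 at 1.23, Fn1 at 1.24 and Ccn1 at 1.37. Nearest to Krt20 were Cpe at 0.29, Anxa10 at 0.35 and Ugt2b34 at 0.37. Krt18 lay nearest to Sbno1, Chn2 and Mcm5, Krt23 to Atp6v0a1, Stn1 and Tasor2, Krt80 to Trp53inp2, Defa34 and Trib2, Krt19 to Acads, Zkscan1 and Laptm4b, and Krt7 to Msantd4, Ccdc124 and Abi2.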

How the data were processed

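RNA of 3 samples was hybridised to 3 whole-transcript mouse arrays. Extraction used Trizol and then spin columns, and the RNA was biotin-labelled, per the labels' protocols. For each probe set and array the authors deposited a log2 value. The submitters' processing notes name RMA, and the series' design text names GeneSpring GX 12.5; the sources used here do not say why the scales of the columns differ. All 3 columns belong to the 3 samples, with 0 others.

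Probe sets with 1 gene symbol (23521 of 41345) were named through the platform annotation and updated through the RefSeq table of GRCm38.p6 (23328 matched); 1814 with several symbols and 16010 without a symbol were left out. Arrays were quantile-normalized to the mean of the 3 sorted columns, and probe sets of a gene were averaged. Probe set coordinates are left out because no source used here names the array's build. The promoter coordinates and the gene order are those of RefSeq on GRCm38.p6. The number of arrays, 1 per group, limits the precision.

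The members and lists were chosen with earlier results of these data known. The text names the 7 members, of a list at most the 2 highest and 2 lowest genes past the floor by FULA 1 minus saline lung, always Vim, Epcam, Cdh1, Dsp, Jup and Cdx2, and 3 genes nearest in level to each member. Apical genes named for counts of 5 or fewer, genes beside the keratin pairs, Perp, Wt1, Cldn3, the basal markers and the desmosomal genes below the mark were named after their values were seen. Of 247 list entries 233 were measured and the others are not analysed here. Other settings were the values as deposited, a common median, the quantiles of FULA 1, a lowess curve (span 0.3), thresholds of 1.5-fold and 4-fold, no floor or the 75th percentile, an offset of 32, the highest probe set per gene and values held at the mark; the lowest probe set per gene was added after seeing the data. Python 3.11.15, numpy 2.4.6, pandas 2.3.3, scipy 1.17.1 and statsmodels 0.14.6 were used.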

Additional observations from a re-analysis of the deposited data

How the results depend on the processing

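No paired analysis was possible because each group is 1 array. In FULA 1 against saline lung the number of keratin genes called higher was 5 and stayed within 1.5 times of that in 11 of 12 other settings. Those 11 include the values as deposited, where 7 were higher, and thresholds of 1.5-fold and 4-fold, where 5 and 4 were. On the deposited scale nearly all genes were higher (21703 of 21820), so the 7 there follow from the scale. Dropping the floor could not change the number, since all 7 genes passed it. A choice of probe set could change it only through Krt18. The 11 settings are therefore no independent checks. With an offset of 32 on the linear scale the number was 3. The number lower was 1 in 11 settings and 0 with the values as deposited. Against urethane lung 7 were higher and 0 lower on the deposited scale, in place of 4 and 1. Between the lungs 0 keratins were lower in every setting run, and the number higher was 3 with the values as deposited, 1 with the quantiles of the FULA 1 array and 1 with a threshold of 1.5-fold (Krt23 in both), and 0 in the other 9. Krt80 turned to 3.13 from saline lung and 2.48 from urethane lung with the values as deposited, where the median of all genes was itself 4.80 and 3.69; relative to that median Krt80 was at -1.67 and -1.21. Between the lungs that median was 1.09. Over all settings without the deposited values, the difference from saline lung ran from 3.02 to 4.84 for Krt8, 1.43 to 4.15 for Krt18, 0.48 to 2.69 for Krt19, 2.38 to 6.56 for Krt20, 0.87 to 4.21 for Krt23, -3.58 to -1.41 for Krt80 and -0.32 to 1.58 for Krt7. Lowess subtraction moved the median of all genes by 0.14 (log2) against saline lung. Counts of all genes higher and lower moved as well. In FULA 1 against saline lung they were 3073 and 2994, and 7058 and 1785 after a shift to 1 median, 21703 and 20 on the deposited scale, 4601 and 4579 at 1.5-fold, 852 and 767 at 4-fold, 433 and 381 with the offset, and 2213 and 1720 with the higher floor. Against urethane lung they were 2930 and 2581, and 7154 and 1558, 21603 and 22, 4512 and 4102, 774 and 678, 408 and 353, and 2111 and 1532 under those settings. Between the lungs they were 409 and 164, and 215 and 203, 5180 and 0, 1373 and 1340, 17 and 1, 8 and 2, and 213 and 79; they were 979 and 897 on the FULA 1 quantiles, 233 and 35 after lowess and 254 and 95 with values held at the mark. Apart from the deposited scale, the cause was not tested. Low signal on the lungs limits Krt20, Krt23 and the weaker Krt18 probe set, which lay below background there on at least 1 lung.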

Other observations

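Genes of the alveolar transitional state, in which type II cells of injured mouse lung pass through a stage of high Krt8, differed in both directions. Among 10 measured genes, 9 of them past the floor, FULA 1 was higher than saline lung by 2-fold or more in 3 and lower in 2, with a median of 0.36, beside 22.6% of all genes higher and 22.0% lower. S100a6 was higher by 2.33 and Anxa1 by 1.41, and Cdkn1a, the cell cycle inhibitor, was at -2.53 and Nupr1 at -1.60. After a shift to 1 median 7 were higher and 1 was lower, beside 7058 higher and 1785 lower of 13666 genes in that setting.

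Between the lungs, Sfn, which encodes stratifin, an adaptor protein of epithelia, was the single gene of that list and of the keratin modifier list at least 2-fold higher in urethane lung, and was named after its value was seen. It stood at rank 68.4 on FULA 1, 87.6 on urethane lung and 64.4 on saline lung, with a difference of 1.85 between the lungs, while Krt8 and Krt18 differed by 0.17 and 0.27. In the other direction Krt6b, a keratin of stratified epithelia, was at -1.80 in urethane lung against saline lung, or lower by at least 0.50, since its urethane value lay below the mark.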
